A study of Macaca mulatta with 28 samples.

Results

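The transcripts described here encode subunits of the oxidative phosphorylation complexes, measured in rhesus macaque midbrain tissue, the ventral tegmental area (VTA), where many dopamine neurons lie. They were chosen by gene symbol and fall into a mitochondrial set, the 13 protein-coding transcripts of the mitochondrial genome, and a nuclear set, the symbols of the NDUF, SDH, UQCR, COX and ATP5 families. The nuclear rule matched 67 of the 16885 symbols in the table, and 65 had at least 5 counts in at least 3 animals, as did 13769 transcripts in all, so that 78 members were tested. COX7A2L and COX6A2 matched by name and did not reach that count. The libraries came from 28 male animals aged 7 to 8.3 years, 17 drinkers that had self-administered ethanol and 11 controls, calorically yoked or housing controls, with 1 library of bulk VTA punch tissue per animal. Drinkers had 12 months of open access to ethanol and then 3 abstinence periods of 1 month with re-access of 3 months in between, and all tissue was taken at the end of the last abstinence. By the labels 9 drinkers were Very Heavy, 5 Heavy, 2 Binge and 1 Low. Of the drinkers 8 belonged to cohort 1 and 9 to cohort 2, and of the controls 8 and 3, so cohort and group were unevenly mixed.

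Oxidative phosphorylation is carried by 5 complexes of the inner mitochondrial membrane. Complex I (NADH dehydrogenase) and complex II (succinate dehydrogenase) pass electrons to ubiquinone, complex III (cytochrome bc1) passes them to cytochrome c, complex IV (cytochrome c oxidase) passes them to oxygen, and complex V (ATP synthase) uses the resulting proton gradient to make ATP. Complexes I, III, IV and V combine subunits made in the mitochondrion from the mitochondrial genome with subunits encoded in the nucleus and imported, while complex II is encoded in the nucleus alone. The mitochondrial transcripts are cut from long precursors read from both strands of the circular genome, whereas each nuclear gene has a promoter of its own. Neurons depend on this pathway for most of their ATP. Here the mitochondrial set held 7 members of complex I, 1 of complex III, 3 of complex IV and 2 of complex V, and the nuclear set held 30, 4, 5, 11 and 15 members of complexes I to V.

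Total counts ranged from 12303914 to 27338669 per library. Levels are given as CPM, counts scaled to a library total of 1000000, or as non-mitochondrial CPM, scaled to the counts outside the mitochondrial genome. The tissue label was checked against marker lists: summed markers of dopamine neurons ranged from 58.7 to 3448 non-mitochondrial CPM, a range found in controls and drinkers alike, and oligodendrocyte markers from 24615 to 42154. Some defining markers had a median under 5 counts, among them NR4A2, RBFOX3, SYT1, AQP4 and SLC1A2. In bulk tissue, fewer cells of a type and less RNA per cell cannot be told apart.

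In the mitochondrial set, 6 libraries stood apart from the other 22, all of cohort 1: controls 2, 3 and 6 and drinkers 3, 9 and 10, where animals are numbered within their group. ND4L, a small membrane subunit of complex I, showed it most. Its level was 2.68 CPM in control 2, 0.050 in control 3, 0.27 in control 6, 2.76 in drinker 3, 1.26 in drinker 9 and 60.2 in drinker 10, and it lay between 5098 and 10240.5, with a median of 7779, in the other 22 libraries. The coding part of ND4L spans chrMT:10461-10754 of the Mmul_10 assembly and shares its last 4 bases with the start of ND4. It is printed whole because its reads are nearly missing in those 6 libraries, with the bases shared with ND4 in capitals.
ND4L: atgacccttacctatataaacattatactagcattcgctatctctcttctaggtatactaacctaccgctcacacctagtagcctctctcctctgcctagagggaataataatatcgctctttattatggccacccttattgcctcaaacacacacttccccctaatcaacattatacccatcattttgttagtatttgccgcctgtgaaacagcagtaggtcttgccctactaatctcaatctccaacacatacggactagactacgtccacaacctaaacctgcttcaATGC

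ND4, the neighbour of ND4L and a proton-pumping subunit of complex I, lay between 6821 and 16523 CPM in the 6 libraries and between 62971 and 109700 in the other 22. The 6 libraries were set by ND4L under 100 CPM, so its own lack of overlap is no result. ND4 shares bases with ND4L and followed it, with a Pearson r of 0.97 over 28 libraries. Its lack of overlap is therefore not separate from the choice by ND4L. ATP8, a subunit of complex V, did not overlap between the 6 and the 22 libraries either, at 2455 to 7392 against 7957 to 15505. ND1, the subunit of complex I next to the ubiquinone site, differed the other way, at 25177 to 33603 against 1063 to 15529 CPM. ATP6, the channel subunit of complex V, was also higher, at 89214 to 102198 against 43645 to 61354. ND6, the 1 member on the other strand, was at 0 in 4 of the 6 libraries and at most 2.63 CPM in them. It lay between 0.33 and 674 in the other 22, where the lowest value belonged to drinker 1. Apart from ND4L, 4 of 12 mitochondrial and 0 of 65 nuclear members had ranges that did not overlap, against 0.0799% of all transcripts, ND4L among them. These 4 are not independent, since they include ND4 and both ATP8 and ATP6, which share sequence.

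CYTB, the mitochondrial subunit of complex III, was between 15.7 and 294 CPM in 5 of the 6 libraries, 13139 in control 2 and 12791 in drinker 1, which is not one of the 6. The other 21 libraries began at 59773 and reached 87311. For COX1, COX2 and COX3, the catalytic core of complex IV, and for ND2, ND3 and ND5 the ranges of the 6 and the 22 libraries overlapped. Salmon divides reads between transcripts that share sequence, and ATP8 and ATP6 share the 43 bases shown in capitals in the junction at chrMT:8488-8590 below.
ATP8/ATP6: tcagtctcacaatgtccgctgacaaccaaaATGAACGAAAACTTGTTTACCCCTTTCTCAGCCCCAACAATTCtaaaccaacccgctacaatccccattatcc

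Per kilobase of coding part, ATP6 exceeded ATP8 by a factor of 1.07 to 1.78 in the 22 libraries and of 4.16 to 12.3 in the 6. The animals' own mitochondrial sequences were not analysed here, and what sets the 6 libraries apart was not tested. They are kept in the results below unless a value is given as without them.

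**Figure D1:**
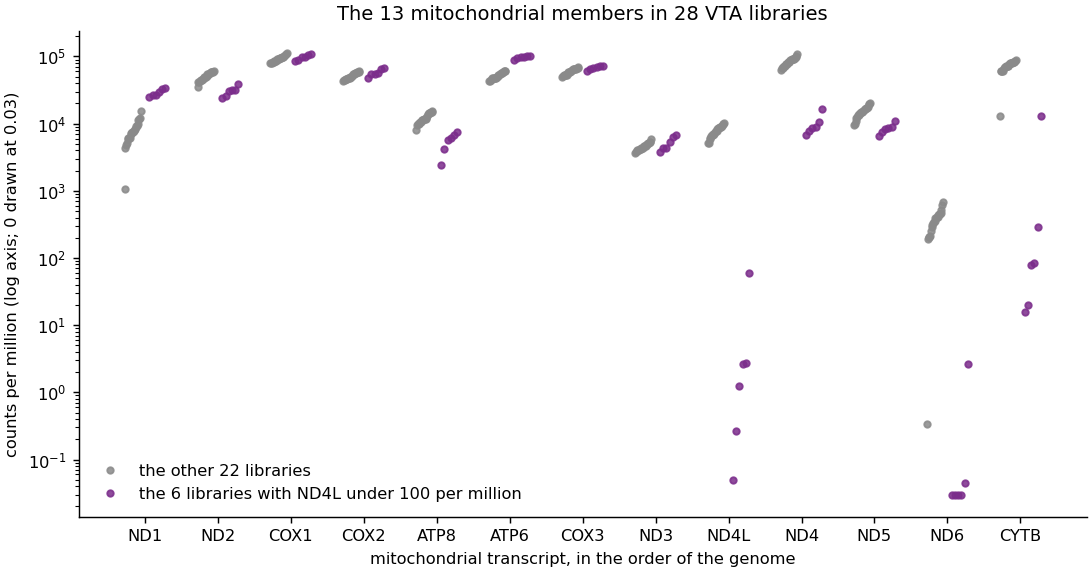
CPM (log axis) of the 13 mitochondrial transcripts, in the order of the genome, in the 6 libraries with ND4L under 100 CPM and in the other 22; each point is 1 library. ND1 and ATP6 lie higher and ATP8, ND4L and ND4 lie lower in the 6 libraries without overlap, and a single grey point in ND6 and CYTB is drinker 1.

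Levels of different transcripts were compared per kilobase of coding part, and in the 22 libraries these levels spanned 2 orders of magnitude. The full length was used, without allowing for read length, which touches the shortest members, ATP8 (204 bases) and ND4L (294), most. Levels within the overlapping pairs ATP8/ATP6 and ND4L/ND4 also depend on how Salmon divided their reads. COX3, COX2 and ATP6 were highest, with medians of 76989, 74821 and 74036 CPM per kilobase, followed by CYTB at 63746, ND4 at 60644, COX1 at 58551 and ATP8 at 56784. ND2 had a median of 46994 and ND4L of 26459. ND3, ND5 and ND1 were lower, at 13012, 8289 and 7899, and ND6 was lowest at 711. The ranges of COX3, COX2 and ATP6 overlapped almost whole, so their order did not exceed the spread between animals, while the range of ND6 (0.64 to 1284) met that of ND1 (1116 to 16312) at its edge.

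The nuclear set was described as non-mitochondrial CPM per kilobase of the longest RefSeq mRNA, which was found for 62 of the 67 symbols and need not be the transcript the authors quantified. NDUFA4, a subunit of complex IV, had the highest median at 1663 non-mitochondrial CPM per kilobase, followed by COX6C of complex IV at 1149 and ATP5F1B, the catalytic beta subunit of complex V, at 1001. ATP5F1A, the alpha subunit that pairs with ATP5F1B in the same head, had a median of 139. Within complex I the accessory subunits NDUFB8 (707) and NDUFB9 (552) were highest, and the flavoprotein core subunit NDUFV1 had a median of 195. The 4 subunits of complex II, where SDHA and SDHB hold the flavin and the iron-sulfur centres, lay between 94.6 for SDHD and 233 for SDHB. In complex III, UQCRQ had a median of 446 and the core protein UQCRC2 of 359.

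Among the members tested, 7 of 65 nuclear transcripts (10.8%) were at 0 in at least 1 animal, against 39.5% of all transcripts tested. NDUFS1, a core subunit of complex I found in every mitochondrion, was at 0 in 18 of 28 animals and reached 48.1 non-mitochondrial CPM in others. ATP5PF, a stalk subunit of complex V, was at 0 in 19 animals and reached 17.2. COX6B2, the testis isoform of a complex IV subunit, was at 0 in 13 and never above 1.22, and its ubiquitous partner COX6B1 had a median of 237 non-mitochondrial CPM. ATP5ME and COX7C were at 0 in 3 and 2 animals with medians near 1. UQCRC1 was at 0 in drinker 5 alone and had a median of 122. Each symbol stands for 1 transcript in the table, so that counts given to other transcripts of the gene are not part of these values, and no fold change is given for the members mostly at 0. Of the other isoform pairs named by the rule, the muscle form COX7A1 was present at 23.7 to 75.3 non-mitochondrial CPM in every animal, and the 3 genes ATP5MC1, ATP5MC2 and ATP5MC3, which encode the same c subunit of complex V, had medians of 91.0, 203 and 275 non-mitochondrial CPM per kilobase. COX6A1, COX8C and UQCRFS1 were not analysed here.

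The summed counts of the sets differed in how much they varied between animals. The mitochondrial set held 36.4% to 60.6% of all counts, with a mean of 48.1% ± 8.53 in controls (SD, n = 11) and 49.2% ± 5.73 in drinkers (SD, n = 17), a difference of 1.09 percentage points that was smaller than the spread within either group and was -0.779 without the 6 libraries. The nuclear set held 1.10% to 1.78% of the counts outside the mitochondrial genome. The ratio of mitochondrial to nuclear member counts therefore lay between 41.6 in drinker 9 and 135 in control 8. Relative to the counts outside the mitochondrial genome, the log2 SD over animals was 0.40 for the mitochondrial and 0.14 for the nuclear set, and 0.36 and 0.11 without the 6 libraries. These are SDs of sums, and the median over 58 single nuclear members with counts in every animal was 0.24. Summing evens out members that move together less, so part of the difference comes from the summing. Among transcripts with counts in every animal and a median level of 50 to 2000 non-mitochondrial CPM, the median log2 SD was 0.21 for 48 nuclear members and 0.24 for 3508 transcripts in all. ATP5MC2 varied least of the members, with a log2 SD of 0.14.

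**Figure D2:**
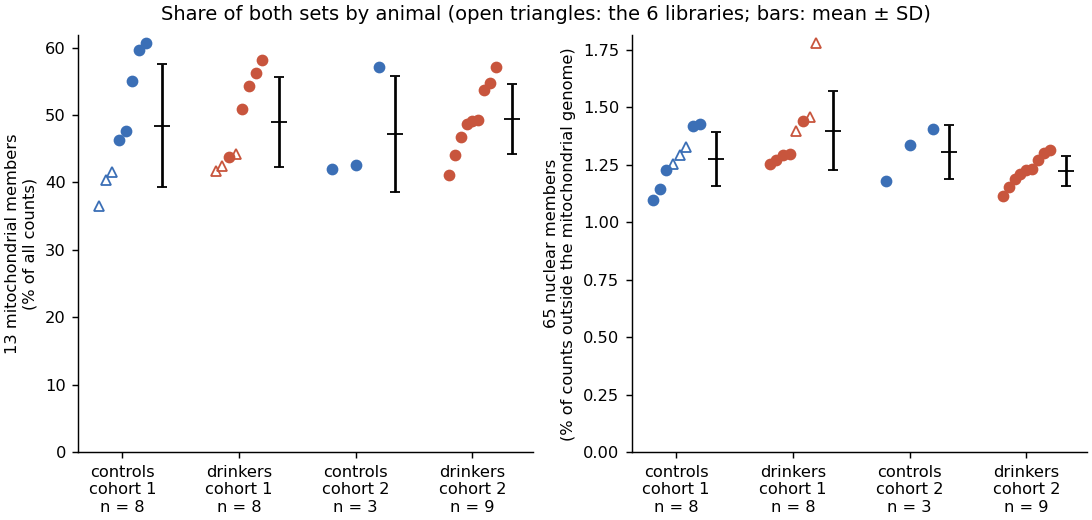
Share of the mitochondrial set in all counts (left) and of the nuclear set in the counts outside the mitochondrial genome (right) for each animal by group and cohort, with mean ± SD beside the points; both axes start at 0. The groups overlap in both panels, and the highest nuclear share, 1.78%, belongs to drinker 9.

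Within the 22 libraries the mitochondrial members moved together and the nuclear members did so less. The median Pearson r over 78 pairs of mitochondrial members was 0.90, over 1653 pairs of nuclear members 0.24 and over 754 pairs with 1 member of each set 2.47e-05. Over all 28 libraries these medians were 0.60, 0.33 and -0.086. These are descriptions of levels that share a library and a denominator. ND1 was the mitochondrial member least like the rest, with a median r of 0.21 with the other 12, against 0.93 for ND2 and 0.94 for ATP6. With the 6 libraries kept, these were -0.45 for ND1, 0.76 for ND2 and -0.04 for ATP6. ND6 and CYTB, the members in which drinker 1 was low, had median r of 0.43 and 0.67.

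Each nuclear transcript was then fitted against the log2 ratio of mitochondrial to all other counts of its library. Over 28 animals no nuclear member had an adjusted p under 0.05 by edgeR's quasi-likelihood test, against 0.0872% of the 13756 transcripts tested, and 5 of 65 had an unadjusted p under 0.05, against 7.86%. Those 5, with negative slopes, were NDUFA2, ATP5MC3, ATP5MC1, COX6B1 and NDUFA9. Their number depended on single libraries, being 0 without control 8 and 9 without drinker 3. Without the 6 libraries COX6C, a small structural subunit of complex IV, passed, against 0.204% of all transcripts. Its slope was 0.49 (SE 0.079) on the log2 scale per doubling of the ratio, with an edgeR adjusted p of 0.0070, and 10 of 65 members had an unadjusted p under 0.05, against 9.59%. With the 6 libraries the slope of COX6C was 0.16 (SE 0.12, adjusted p = 0.835). Over those 22 libraries its r with the ratio was 0.82 (Spearman's rho 0.79), the highest of the 13756 transcripts, and 0.81 without the 2 libraries with the most extreme ratios. In the 6 libraries COX6C lay between 407 and 697 non-mitochondrial CPM at ratios in the lower part of the range, and drinkers 3 and 9 among them, at 686 and 697, were above all of the other 22.

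Over the 22 libraries UQCRB, a subunit of complex III, followed with an r of 0.55. Then came NDUFV2 (0.47), NDUFB2 (0.46), ATP5IF1, the inhibitor of ATP synthase (0.46), and NDUFS6 (0.46). The edgeR slopes of these members lay between 0.34 and 0.54 over the 22 libraries, but between 0.024 and 0.25 over all libraries. At the other end were ATP5MC1 (-0.51), COX6B1 (-0.39), ATP5MC3 (-0.36), NDUFB3 (-0.35) and NDUFA2 (-0.32). Their slopes lay between -0.52 and -0.20 over the 22 libraries and between -0.42 and -0.21 over all libraries. In these 22 libraries the median r was -0.0059 over the 65 members and -0.058 over all transcripts.

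**Figure D3:**
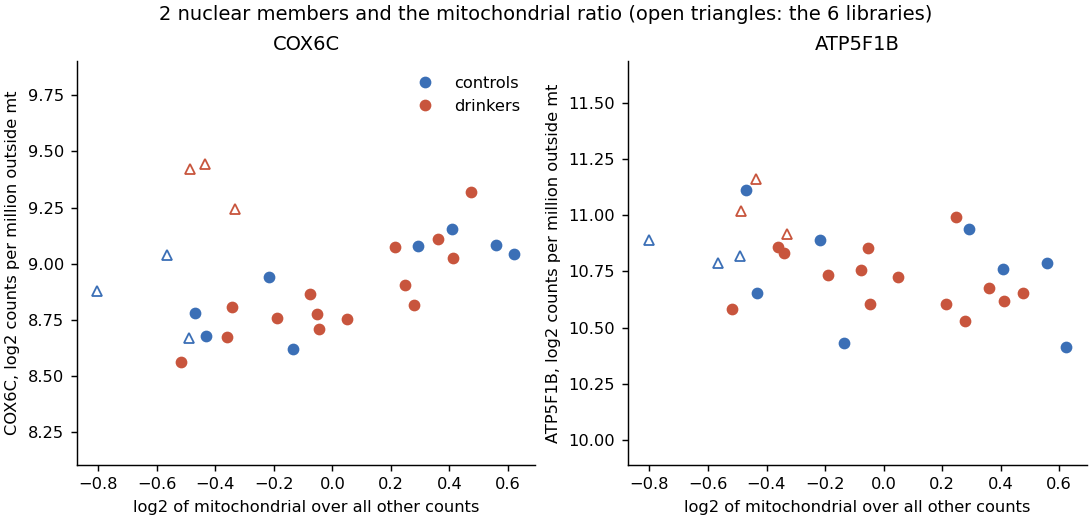
Level of COX6C and of ATP5F1B (log2 non-mitochondrial CPM, axes of equal span) against the log2 ratio of mitochondrial to all other counts; each point is 1 animal and open triangles are the 6 libraries. The filled points of COX6C rise with the ratio (r = 0.82 over 22 libraries), while the open triangles of drinkers 3, 9 and 10 lie above the filled points at similar ratios.

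Drinkers and controls were compared to ask whether the pathway differed after the last abstinence. No member was called by edgeR's quasi-likelihood test at an adjusted p of 0.05, and neither was any other of the 13769 transcripts (0%). DESeq2's Wald test called 11 transcripts (0.0799%) and none of them was a member, while 2 of 65 nuclear members had an unadjusted p under 0.05 by that test, against 4.42%. Among the 13 mitochondrial members none had an unadjusted p under 0.05, and their log2 fold changes lay between -0.08 and 0.20 with a median of 0.05. Of the 65 nuclear members, 1 had an unadjusted p under 0.05 (1.54%), against 4.57% of all transcripts, and the median was 0.03. With cohort as a covariate 4 of 65 did (6.15%), all higher in drinkers, against 7.06% of all transcripts, and 0 members and 0% of all transcripts were called. Leaving out single animals gave 1 to 4. Without the 6 libraries the medians of both sets were -0.06, and 4 nuclear members, NDUFV1, NDUFS8, ATP5F1D and NDUFA11, had lower values in drinkers at an unadjusted p under 0.05, against 4.55% of all transcripts, so the sign of these small medians depended on those libraries. The lowest p over all 28 animals belonged to NDUFB1 (log2 fold change 0.25, SE 0.10), NDUFV1 (-0.16, SE 0.081), NDUFB3 (0.23, SE 0.12), COX7B (0.21, SE 0.12) and NDUFV3 (-0.31, SE 0.17), each with an edgeR adjusted p of 1.00.

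Within cohort 1, where 8 drinkers met 8 controls, NDUFB5 was higher in drinkers. NDUFB5 is an accessory subunit in the membrane arm of complex I. In controls 1 to 8 its level was 199, 199, 227, 211, 184, 232, 230 and 186 non-mitochondrial CPM. In drinkers 3, 4, 5, 6, 8, 9, 10 and 11 of this cohort it was 276, 217, 254, 262, 240, 292, 291 and 258. Of the drinkers, 7 were above every control, and drinker 4 was above 5 of them. The log2 fold change was 0.34 (SE 0.065) with an edgeR adjusted p of 0.012, among 52 transcripts called higher (0.378%) and 132 called in all (0.959%). Without the 6 libraries it was 0.27 (SE 0.073) with an adjusted p of 0.14, and no transcript was called. Leaving out each of the 16 animals in turn gave adjusted p between 0.0056 and 0.034. In a fit of the 16 animals of cohort 1 alone the value was 0.34 with an adjusted p of 0.13.

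COX7B, a subunit of complex IV, came next, at 195 to 269 in controls and 257 to 492 in drinkers of cohort 1. Its log2 fold change was 0.46 (SE 0.12, adjusted p = 0.052 by edgeR) and the highest levels, 492 and 394, came from drinkers 9 and 10 of the 6 libraries. UQCRB (0.35, SE 0.10), the core protein UQCRC2 (0.23, SE 0.074) and the stalk subunit ATP5PB (0.22, SE 0.070) followed and were not called by edgeR. DESeq2's Wald test called 7 members higher, NDUFB5, COX7B, UQCRB, UQCRC2, ATP5PB, NDUFS4 and NDUFA12, among 429 transcripts in all (3.12%), and gave 21 of 65 nuclear members an unadjusted p under 0.05, against 14.2%.

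As a set, 49 of 65 nuclear members were higher in drinkers of cohort 1 and 18 had an unadjusted p under 0.05 (27.7%), 17 of them higher, against 14.7% of all transcripts. Of all transcripts 39.5% were at 0 in at least 1 animal, against 10.8% of nuclear members. The 14.7%, like the other shares of all transcripts under the main filter, therefore comes from a sparser set than the members. The median log2 fold change of the nuclear members was 0.15 and that of all transcripts -0.01. Complexes I to V had medians of 0.14, 0.15, 0.16, 0.20 and 0.15. The mitochondrial members had a median of 0.03, which lay between -0.07 and 0.20 with single animals left out and was -0.09 without the 6 libraries, and 0 of 13 had an unadjusted p under 0.05. The difference between the sets was not tested. Without the 6 libraries the nuclear median was 0.03, with 37 of 65 higher, and 9 members had an unadjusted p under 0.05, against 13% of all transcripts. Markers of neurons moved with this comparison: the summed level of 10 neuron markers was 7863 to 25340.5 non-mitochondrial CPM in controls of cohort 1 (median 11532) and 10564 to 51937 in drinkers (median 19712), and 2 of the 10, RBFOX3 and SYT1, had medians under 5 counts. Their part in the result was not tested.

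In cohort 2, 0 members and 0% of all transcripts were called by edgeR, and 1 member had an unadjusted p under 0.05, ATP5PB, at a log2 fold change of -0.22 (SE 0.093). NDUFS1, mostly at 0, NDUFV1 (-0.22, SE 0.12), NDUFB5 (-0.14, SE 0.085) and SDHA (-0.16, SE 0.098) followed. There 54 of 65 nuclear members were lower in drinkers, with a median of -0.10, while 11 of 13 mitochondrial members were higher, with a median of 0.06. The direction of all transcripts in cohort 2 is not given here, so these counts cannot be read as traits of the sets. This comparison had 3 controls, and 2% of all transcripts had an unadjusted p under 0.05. The difference of the drinker effect between the cohorts was tested directly. No member was called, against 0.0145% of all transcripts, and 16 of 65 nuclear members had an unadjusted p under 0.05 (24.6%), 15 of them lower in cohort 2, against 9.62%. NDUFB5 was lowest in p, at -0.48 (SE 0.11, adjusted p = 0.16 by edgeR), followed by ATP5PB (-0.44, SE 0.12), SDHA (-0.36, SE 0.12), UQCRB (-0.48, SE 0.17) and COX7B (-0.55, SE 0.19). Without the 6 libraries 8 members had an unadjusted p under 0.05, against 9.15% of all transcripts.

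**Figure D4:**
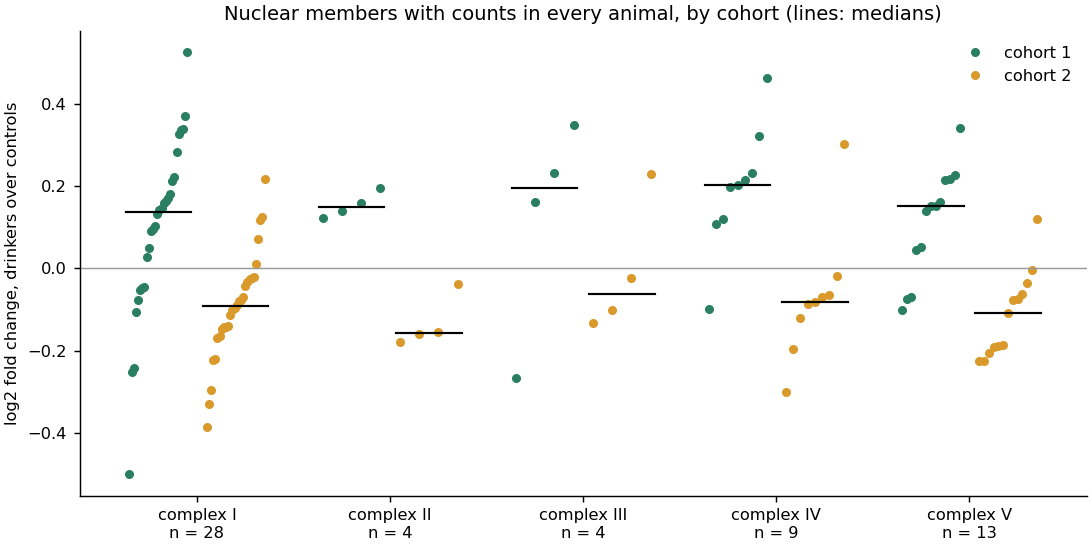
Log2 fold change of drinkers over controls for each nuclear member with counts in every animal, by complex, in cohort 1 and in cohort 2; each point is 1 gene and black lines are medians. The medians of all 5 complexes lie above 0 in cohort 1 and below 0 in cohort 2.

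The cohorts themselves differed in the mitochondrial member ND1. With group in the model, ND1 was called lower in cohort 2, at a log2 fold change of -1.57 (SE 0.26) and an edgeR adjusted p of 0.022, as the 1 lower transcript (0.00726%) of the 6 called (0.0436%). Its level was 7060 to 33603 CPM in the 16 libraries of cohort 1, with a median of 12061, and 1063 to 8332 in the 12 of cohort 2, with a median of 6070. The 6 libraries hold the highest values of cohort 1. Without them cohort 1 began at 7060 and ended at 15529, so that the cohorts still overlapped only between 7060 and 8332, and the log2 fold change was -1.02 (SE 0.23, unadjusted p = 0.00018, adjusted p = 0.31). The call was also lost without drinker 2, control 11 or drinker 9, at adjusted p of 0.052, 0.052 and 0.056. The other 12 mitochondrial members were not called, among them ATP6, which had the next lowest p (-0.45, SE 0.15, adjusted p = 0.23). Cohort 2 was lower for 6 of the 13 with them and for 12 of the 13 without the 6 libraries, where the median was -0.30.

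**Figure D5:**
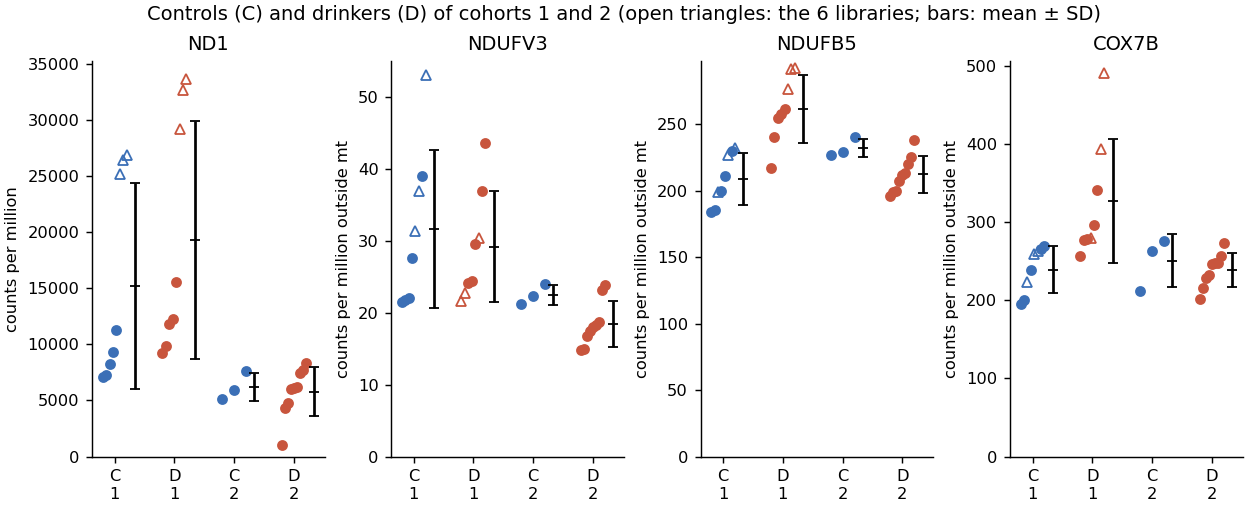
Level of ND1 (CPM) and of NDUFV3, NDUFB5 and COX7B (non-mitochondrial CPM) in each animal, for controls (C) and drinkers (D) of cohorts 1 and 2, with mean ± SD; all axes start at 0 and open triangles are the 6 libraries. ND1 and NDUFV3 are lower in cohort 2, and NDUFB5 and COX7B are highest in drinkers of cohort 1.

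No nuclear member was called between cohorts, but 60 of 65 were lower in cohort 2 and 19 had an unadjusted p under 0.05 (29.2%), 18 of them lower, against 9.8% of all transcripts. NDUFV3, a flavoprotein accessory subunit of complex I, was nearest, at 21.4 to 53.0 non-mitochondrial CPM in cohort 1 and 14.8 to 23.9 in cohort 2 (log2 fold change -0.63, SE 0.14, adjusted p = 0.090 by edgeR). DESeq2's Wald test called it, at an adjusted p of 0.0018, with ND1 and 0.879% of all transcripts, and so did edgeR among the 7637 transcripts with 10 counts in every sample, at an adjusted p of 0.049, with ND1 and 0.131% of them. There 24 of 58 nuclear members had an unadjusted p under 0.05, against 13%. DESeq2 gave 28 of 65 nuclear members an unadjusted p under 0.05, against 10.2%. NDUFB4 (-0.26, SE 0.081), NDUFA12 (-0.26, SE 0.087), COX7B (-0.30, SE 0.10) and NDUFV1 (-0.21, SE 0.073) followed, and NDUFA5 was the 1 member higher in cohort 2 at an unadjusted p under 0.05, at 0.59 (SE 0.22). The median over the nuclear set was -0.16, and -0.09 without the 6 libraries, where 4 members had an unadjusted p under 0.05, against 8.8% of all transcripts. The direction and median of all transcripts between cohorts are not given here. The 60 of 65, the medians and the direction of the mitochondrial members therefore cannot be read as traits of the sets. Drinkers and controls gave different counts. In the 17 drinkers 31 of 65 nuclear members were lower in cohort 2 at an unadjusted p under 0.05, against 14.3% of all transcripts, with a median of -0.24, and 5 of them were called with ND1, among 104 transcripts (0.755%). Leaving out the 6 libraries, 13 of 65 were lower at an unadjusted p under 0.05 in drinkers, against 13.3%, with a median of -0.13, and no member was called, against 0.0145% of all transcripts. In the 11 controls, 3 of them in cohort 2, 1 of 65 had an unadjusted p under 0.05, against 4.12% of all transcripts, with a median of 0.0047, and 0 members were called. The cohort and the handling of its tissue cannot be told apart.

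Among drinkers, 9 Very Heavy and 5 Heavy animals were compared, of which 3 and 4 belonged to cohort 1. No member and 0% of all transcripts were called by edgeR, 1 of 65 nuclear members had an unadjusted p under 0.05, against 5.34%, and 0 of 13 mitochondrial members did. The medians were 0.08 for the mitochondrial and 0.03 for the nuclear set, and 0.04 and -0.07 without the 6 libraries. That 1 member was ATP5PF, which was at 0 in most animals, and DESeq2's Wald test called it, with 0.232% of all transcripts, as the 1 of 65 with an unadjusted p under 0.05 by that test, against 4.36%. COX7A1 followed, at 0.48 (SE 0.24), and then ATP5ME, which was near 0, ATP5F1E (0.19, SE 0.13) and NDUFS4 (-0.14, SE 0.10). Without the 6 libraries 5 nuclear members had an unadjusted p under 0.05, against 6.02% of all transcripts. With cohort as a covariate 6 of 65 did (9.23%), all higher in Very Heavy drinkers, against 5.14% of all transcripts, with a nuclear median of 0.12 and no member called.

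Genes that assemble, express or feed the complexes were read from 11 further lists. Between drinkers and controls none of their genes was called, and SUCLG2, an enzyme of the tricarboxylic acid cycle, had the lowest p (log2 fold change 0.29, SE 0.085, adjusted p = 0.518), followed by DNA2, which was at 0 in most animals. In cohort 1, 5 of their 220 genes tested were called (2.27%), against 0.959% of all transcripts, and none of the 5 was called without the 6 libraries, at adjusted p between 0.12 and 0.28. PET100, which assembles complex IV (0.64, SE 0.14), TRMT10C, a subunit of mitochondrial RNase P (0.48, SE 0.11), MRPL35 of the mitochondrial ribosome (0.28, SE 0.070) and the import receptor TOMM70 (0.35, SE 0.087) were higher in drinkers, and PPRC1, a coactivator of mitochondrial biogenesis, was lower (-0.30, SE 0.068), with edgeR adjusted p between 0.031 and 0.047. In the tricarboxylic acid cycle 8 of 18 genes were higher at an unadjusted p under 0.05 and 0 were called, with a median of 0.22, and in the mitochondrial ribosome 15 of 64 were higher and 1 lower, with a median of 0.10, against 14.7% of all transcripts in either direction. Glycolysis had 1 higher and 1 lower of 15, with a median of 0.09. When the 6 libraries were left out, the tricarboxylic acid cycle had 4 of 18 higher, the mitochondrial ribosome 8 higher and 3 lower of 64 and glycolysis 1 higher and 3 lower of 15, against 13% of all transcripts, with medians of 0.22, 0.05 and 0.01. Between cohorts none of the genes in these lists was called, and the medians of the tricarboxylic acid cycle and the mitochondrial ribosome were -0.12 and -0.08.

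The nuclear genes lie on many chromosomes, and the windows from 250 bases before to 50 after the RefSeq start in Mmul_10 were read for 60 of the 65 members and for 13264 transcripts in all. The core of the site of the regulator NRF1 was found on either strand in 13 of 60 member windows (21.7%), against 8.09% of all windows. CCGGAAG, an ETS site that GABPA can bind, was found in 12 (20%), against 12.2%, and AANATGGCG, a YY1 site, in 9 (15%), against 3.43%. The CCAAT letters were found in 26 (43.3%), against 34.5%, and TATAAA in 8 (13.3%), against 7.79%. The median share of G and C bases was 56.8% in member windows and 61.7% in all windows. The percentages were not adjusted for it. The motifs were searched separately and can overlap. A match is a description of the sequence, and binding was not measured. The windows of NDUFB5 at chr2:84754939-84755238 on the plus strand and of NDUFB4, which had the second lowest p of the nuclear members between cohorts, at chr2:155674307-155674606 on the minus strand are printed 5′ to 3′ as examples of an ETS and an NRF1 match, each in capitals.
NDUFB5: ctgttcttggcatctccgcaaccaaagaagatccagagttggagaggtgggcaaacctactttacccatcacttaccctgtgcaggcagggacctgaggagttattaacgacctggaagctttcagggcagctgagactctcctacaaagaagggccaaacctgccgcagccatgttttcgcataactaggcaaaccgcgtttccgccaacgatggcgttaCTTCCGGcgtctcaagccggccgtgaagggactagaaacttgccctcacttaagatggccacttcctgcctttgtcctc
NDUFB4: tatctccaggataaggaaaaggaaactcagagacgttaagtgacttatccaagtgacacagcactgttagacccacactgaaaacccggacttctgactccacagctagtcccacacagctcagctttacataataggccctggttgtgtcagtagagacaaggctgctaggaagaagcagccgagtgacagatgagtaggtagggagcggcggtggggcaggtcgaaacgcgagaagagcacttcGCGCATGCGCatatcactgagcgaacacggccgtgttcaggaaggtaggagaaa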

How the data were processed

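Punches of the VTA from 28 animals were sequenced as poly(A)-selected RNA libraries. The authors trimmed reads with Trim Galore 0.6.7 and quantified them with Salmon 1.9.0 against Mmul_10, per the labels and the submitters' processing notes, which also list DESeq2 1.36.0, and deposited estimated counts, 1 transcript per symbol, in a table of 16886 entries. The 1 entry without a symbol (1.16e-05% of counts) was left out. Salmon shares reads between transcripts with common sequence, which touches the overlapping ATP8/ATP6 and ND4L/ND4 pairs and nuclear genes with near-identical copies.

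Estimated counts were rounded, and transcripts reaching 5 counts in 3 or more animals were tested. edgeR 4.0.16 (TMM scaling, quasi-likelihood test, Benjamini-Hochberg adjustment over all transcripts, threshold 0.05) in R 4.3.3 was the main test. limma 3.58.1 (voom) and DESeq2 1.42.0 were alternatives, beside other scalings and filters, cohort as a covariate, the 6 libraries left out and each animal left out. Within-cohort and interaction values came from a fit of group by cohort over all animals. Standard errors are the log2 fold change divided by the root of the F statistic. Levels used pandas 2.3.3, numpy 2.4.6 and scipy 1.17.1 under Python 3.11.15. Groups came from the labels and cohorts from the study's source data. Animals of a group were separate animals, so the p-values measure spread between animals.

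The members, the further lists and the alternatives were chosen with earlier results of these data known. The named genes were all mitochondrial members, the nuclear members with an adjusted p under 0.05 in a comparison or, failing that, the 5 with the lowest p, those highest and lowest within each complex or at 0 in an animal, isoform groups, core subunits, and the 5 that followed the mitochondrial ratio most in each direction, with called genes, or the 2 of lowest p, from the further lists. A few more are named for their rank or level, and 1 member at 0 in some animals is not reported here. Members named for the 6 libraries were chosen after their values were seen. Sequences came from RefSeq on Mmul_10.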

Additional observations from a re-analysis of the deposited data

Results flagged for a closer look

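In 60 groups of 4 to 10 animals tested for an animal far from the others, 2 held one, and chance alone gives about 1 in 20. The nuclear members' share of the counts outside the mitochondrial genome was 1.77806% in drinker 9, the highest of the 8 cohort 1 drinkers, and the next was 1.45492%. CYTB was at 12791.2 CPM in drinker 1, the lowest of the 9 cohort 2 drinkers, and the next was 61178.9.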

How the results depend on the processing

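No paired analysis was possible because the replicate numbers were given in accession order and the labels do not say which control was yoked to which drinker. Between cohorts, where 1 member was called, 10 counts in every sample (0.131% of transcripts) and DESeq2's Wald test (0.879%) each called 2, drinkers only (0.755%) 6 (0 without the 6 libraries, 0.0145%), controls only (0%) 0, and the fit without the 6 libraries 0, while leaving out each animal gave 0 to 1, with 0 without drinker 2, drinker 9 or control 11. The 19 nuclear members with an unadjusted p under 0.05 became 31 in drinkers only, 1 in controls only, 4 without the 6 libraries and 13 to 32 with each animal left out, the 32 without control 10. The nuclear median was 0.0047 in controls only, and the COX7B value reversed there, at 0.0502. Within cohort 1, where 1 member was called (0.959% of transcripts), DESeq2 called 7 (3.12%) and the fit without the 6 libraries 0 (0%). The cohort fitted alone called 0, and leaving out each animal gave 1 to 2, COX7B being added without drinker 3, 4, 6 or 8. The share of all transcripts is not given here for the cohort alone or for single animals left out. The 18 with an unadjusted p under 0.05 became 9 without the 6 libraries and 12 to 24 with each animal left out. For the mitochondrial share, 1 member was called without the 6 libraries (0.204% of transcripts), and for very heavy against heavy drinkers DESeq2 called 1 (0.232%). With cohort as a covariate the nuclear members with an unadjusted p under 0.05 became 4 from 1 for drinkers against controls and 6 from 1 for very heavy against heavy drinkers, and leaving out each animal gave 1 to 4 and 1 to 3. For the mitochondrial share that number was 0 to 9 with each animal left out. In 113 further values of the counts called, the medians, the share and, between cohorts and within cohort 1, the counts at an unadjusted p under 0.05, single animals left out aside, the change was within 1.5 times for a count and within the spread for a median or share. The cause was not tested. The choices made after seeing the data were the fits without the 6 libraries and, within cohort 1, the other tools, the scaling and the animals left out. Depth was 12303914 to 27338669 counts, and members near 0 carry little information.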

Other observations

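ND1 was at 1063 CPM in drinker 16, the lowest of all animals. UQCRC1 was at 0 in drinker 5 and between 73.5 and 189 non-mitochondrial CPM in the others.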
